A study of Mus musculus with 4 samples.

Results

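The genes followed here, 5 of monoamine synthesis over 4 bead arrays, are Ddc, Gch1, Pts, Qdpr and Dnajc12. They were taken by gene symbol, and 7 of the 12484 probes that could be named carried 1 of these symbols, for 5 of 8980 named genes. Gch1 and Pts had 2 probes each, and the other members had 1. The group was chosen by signals and folds already seen on these 4 arrays, so the differences of its members are a description of these arrays and support nothing further.

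The arrays held RNA of neural precursor cells cultured from the embryonic cortex of ICR mice (embryonic day 12). Cells were transduced with a pCL retrovirus for 2 hours while they still proliferated in bFGF and EGF, and RNA was taken 2 days after both growth factors had been withdrawn. There was 1 array for each of 4 groups: the viruses for Nurr1 and Foxa2 together (Nurr1+Foxa2), the Foxa2 virus, the Nurr1 virus and the empty pCL virus (Control). The series asks whether both transcription factors act together in making dopamine neuron precursors. With 1 array a group, no test was possible and no difference has a replicate check. Whether fewer cells expressed a gene or each cell held less of its RNA cannot be told apart in such bulk samples.

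Dopamine and serotonin are made from aromatic amino acids in a pair of steps: a hydroxylase such as tyrosine hydroxylase (Th) adds a hydroxyl group, and aromatic L-amino acid decarboxylase, the product of Ddc, then removes the carboxyl group with pyridoxal phosphate as its cofactor. The hydroxylases need tetrahydrobiopterin. GTP cyclohydrolase, encoded by Gch1, commits GTP to the synthesis of this cofactor and limits its rate. 6-Pyruvoyltetrahydropterin synthase (Pts) and sepiapterin reductase (Spr) complete it, and dihydropteridine reductase (Qdpr) recycles it after use. Dnajc12 encodes a J-domain co-chaperone that binds the aromatic amino acid hydroxylases and works with the chaperone Hspa8.

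The promoter windows of Ddc and Gch1 are shown because these genes had the largest differences between Nurr1+Foxa2 and Control among the members. They are RefSeq sequences of GRCm38.p6, covering 250 bases before and 50 after an annotated start, 5′ to 3′ on the strand of the gene, which is the minus strand for both. Capitals mark matches to short forms of the sites known for the 2 factors, searched on both strands.
Ddc, upstream start, chr11:11898095-11898394: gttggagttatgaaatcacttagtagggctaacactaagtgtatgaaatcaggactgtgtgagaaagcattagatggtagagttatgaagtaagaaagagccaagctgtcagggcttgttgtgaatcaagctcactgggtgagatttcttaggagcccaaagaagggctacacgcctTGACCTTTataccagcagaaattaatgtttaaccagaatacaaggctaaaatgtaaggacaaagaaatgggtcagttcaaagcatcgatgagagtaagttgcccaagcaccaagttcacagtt
Ddc, downstream start, chr11:11890359-11890658: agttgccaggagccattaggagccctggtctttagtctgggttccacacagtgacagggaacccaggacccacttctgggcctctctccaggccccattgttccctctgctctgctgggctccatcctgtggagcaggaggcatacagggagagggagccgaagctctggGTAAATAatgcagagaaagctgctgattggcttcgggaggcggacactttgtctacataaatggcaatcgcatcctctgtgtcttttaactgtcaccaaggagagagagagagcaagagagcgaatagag
Gch1, chr14:47189364-47189663: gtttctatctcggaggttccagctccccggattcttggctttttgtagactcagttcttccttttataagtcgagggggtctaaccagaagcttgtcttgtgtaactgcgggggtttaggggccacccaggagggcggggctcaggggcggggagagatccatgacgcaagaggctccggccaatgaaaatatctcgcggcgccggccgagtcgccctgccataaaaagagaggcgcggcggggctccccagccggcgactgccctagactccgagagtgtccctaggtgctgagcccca

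The Nurr1 monomer element was searched as AAAGGTCA and as its shorter form AAGGTCA, which the longer one contains. AAAGGTCA occurred once, on the opposite strand, in the upstream Ddc window, where it begins 73 bases before the start, and it was found in 1.51% of 32851 promoter windows of the table. Forkhead cores were searched in 3 forms. The first was TGTTTAC, found in none of the windows of Ddc, Gch1, Pts and Qdpr and in 3.65% of all windows. The second was TGTTTGC, given with the Pts window. The third form, TATTTAC, lay on the opposite strand of the downstream Ddc window, 80 bases before the start, and 3.04% of all windows held it. Any of the 3 forkhead forms was found in 11.2% of windows. No searched form was in the Gch1 window or in that of Qdpr (chromosome 5). The Pts window (chromosome 9) held TGTTTGC, found in 5.07% of windows, and AAGGTCA, found in 4.72%. These matches describe letters only. The windows also differed in base composition: the upstream Ddc window was 41.3% G and C with 2 CpG dinucleotides and the downstream one 54.3% with 5. Gch1 had 60.3% and 20 CpG, Qdpr 60.7% and 23, and Pts 62.7% and 25, against a median of 52.7% and 7 over all windows. Dnajc12 lies on chromosome 10, and no window for it was among the promoter sequences used.

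Signals are mean bead intensities as deposited. Detection on an array means that the p-value deposited beside the signal was under 0.01. The lowest detected signal was 179 with Nurr1+Foxa2, 173 with Foxa2, 166.5 with Nurr1 and 166.4 with Control, and between 42.7% and 44.6% of probes were detected. Folds come from background-corrected, quantile-normalized log2 values. A fold against an array that did not detect the gene is a bound, written "at least", taken against the lowest normalized value of a detected probe there. It holds on the background-corrected scale only. Ratios of the signals printed here still contain background and can be smaller, so the main bounds are given without background correction too. A gene counted as higher or lower from 2-fold upward. The only error available is how far several probes for 1 gene differ from each other. As an SD in log2 units, against Control, it was 0.24 for Nurr1+Foxa2, 0.20 for Foxa2 and 0.18 for Nurr1. It was 0.20 for Nurr1+Foxa2 against Nurr1, 0.20 against Foxa2, and 0.19 for Foxa2 against Nurr1. Differences between cultures are not in it, so lying beyond this SD does not show that a difference would recur.

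Ddc was the member with the highest folds on both arrays that carried Foxa2. Its probe (ILMN_2628647) had a signal of 7392 with Nurr1+Foxa2, 5243 with Foxa2, 368 with Nurr1 and 106 with Control. The Control array did not detect it (detection p-value 0.281), and each of the other arrays did. Ddc was thus at least 74.2-fold higher with Nurr1+Foxa2 than with Control, at least 52.6-fold higher with Foxa2 and at least 3.07-fold higher with Nurr1, all on the background-corrected scale. Without background correction the same bounds were 39.6-fold with Nurr1+Foxa2, 28.2-fold with Foxa2 and 2.09-fold with Nurr1. With Foxa2, its bound exceeded the measured change of all 7358 genes detected on both the Foxa2 and Control arrays. With Nurr1+Foxa2, 1 of 7233 genes so measured had a larger rise, and with Nurr1, 94 of 7299 had.

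Ddc also differed between the arrays with virus-borne factors, where every value was measured. It was 24.2-fold higher with Nurr1+Foxa2 than with Nurr1 (log2 4.59), and 17.1-fold higher with Foxa2 than with Nurr1. The step between Nurr1+Foxa2 and Foxa2 was small, 1.41-fold (log2 0.50), yet beyond the SD between probes. Of 7454 genes measured on these 2 arrays, 812 rose further. The levels ran from Nurr1+Foxa2 through Foxa2 and Nurr1 to Control, and each neighbouring pair differed by more than that SD.

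Gch1 was detected only on the 2 arrays with Foxa2. Its brighter probe (ILMN_2606295) had a signal of 2178 with Nurr1+Foxa2, 1366 with Foxa2, 152 with Nurr1 and 145 with Control. The detection p-values were 0.0175 with Nurr1 and 0.0276 with Control, so both arrays missed the threshold narrowly and no difference between them is given. Gch1 was at least 20.9-fold higher with Nurr1+Foxa2 than with Control and at least 12.6-fold higher with Foxa2. Against Nurr1 it was at least 23.5-fold higher with Nurr1+Foxa2 and at least 14.2-fold higher with Foxa2. Without background correction these bounds were 11.5-fold and 7.12-fold against Control, and 12.2-fold and 7.56-fold against Nurr1.

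The dimmer Gch1 probe (ILMN_2753029) had the same detection pattern at lower signals, 273 with Nurr1+Foxa2, 254 with Foxa2, 96.2 with Nurr1 and 103 with Control. Its bounds were at least 1.75-fold with Nurr1+Foxa2 and at least 1.62-fold with Foxa2, both against Control. Both Gch1 probes also disagreed on the size without a floor, with log2 differences from Control of 2.32 (Nurr1+Foxa2) and 2.21 (Foxa2) for the dimmer one, beside 4.85 and 4.11 for the brighter one. Between Nurr1+Foxa2 and Foxa2 the brighter probe gave 1.66-fold (log2 0.73) and the dimmer one 1.08-fold (log2 0.11). The first exceeds the SD between probes and the second does not, so the order of these 2 arrays rests on the brighter Gch1 probe. Of 7454 genes measured on both arrays, 502 rose further than this probe.

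Dnajc12 was higher with Foxa2 too, but here the array with both factors was not the brightest. Its probe (ILMN_1229993) had a signal of 1674 with Nurr1+Foxa2, 4681 with Foxa2, 367 with Nurr1 and 400 with Control, and all 4 arrays detected it. Against Control it was 4.19-fold higher with Nurr1+Foxa2 and 12.3-fold higher with Foxa2, and 1.24-fold lower with Nurr1 (log2 -0.31). The Foxa2 array thus stood above the other three.

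Set against Foxa2 alone, Dnajc12 was 2.93-fold lower with Nurr1+Foxa2 (log2 -1.55), a difference that ranged from 2.82-fold to 2.99-fold over the main and the 7 alternative ways of processing. It was 5.18-fold higher with Nurr1+Foxa2 than with Nurr1, and 15.2-fold higher with Foxa2 than with Nurr1. Of 7454 genes measured on the Nurr1+Foxa2 and Foxa2 arrays, 88 fell further. Ddc and Gch1 were higher, not lower, in the same comparison. The amount of Foxa2 transcript on either array was not analysed here, and its part in the Dnajc12 difference was not tested. The Nr4a2 probe, for the gene of Nurr1, read 1620 with Nurr1+Foxa2 and 1669 with Nurr1, against 216 with Foxa2 and 167 with Control.

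**Figure D1:**
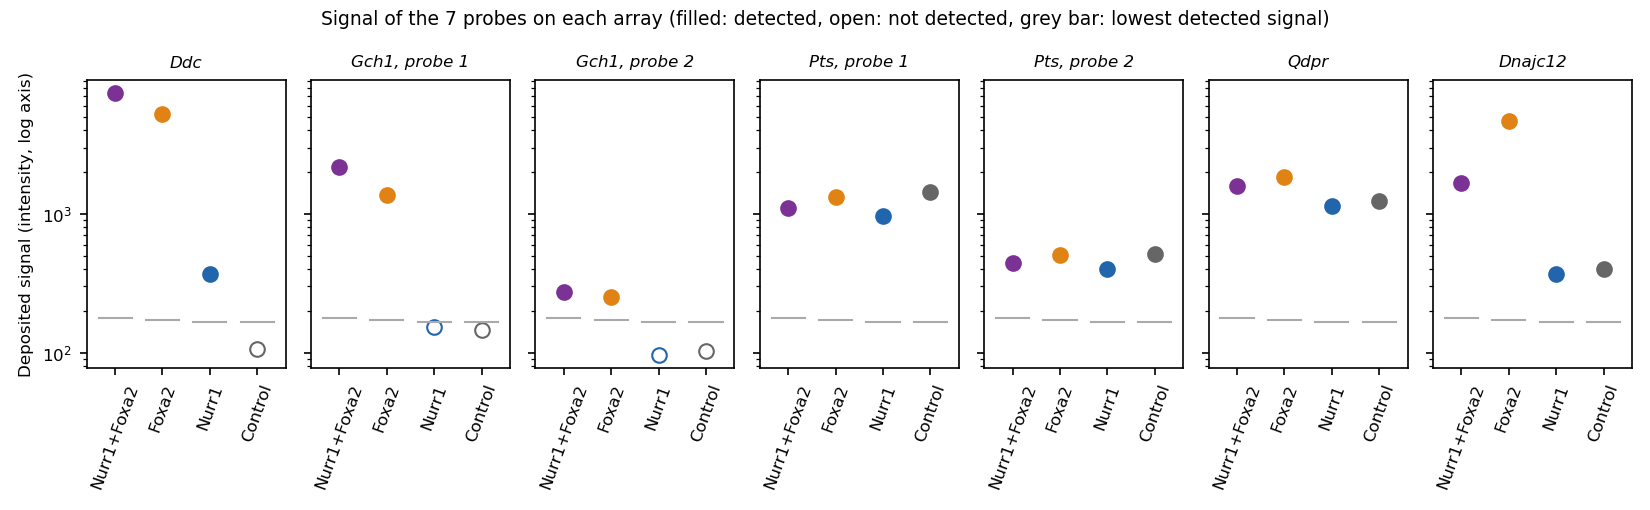
Deposited signal (log axis) of each of the 7 member probes on the 4 arrays, with filled points where the probe was detected, open points where it was not, and a grey bar at the lowest detected signal of each array. Ddc and Gch1 are highest with Nurr1+Foxa2, Dnajc12 with Foxa2, and Pts and Qdpr stay within a narrow band.

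Pts and Qdpr were detected on all 4 arrays and differed by less than 2-fold in every comparison. The brighter Pts probe (ILMN_2848548) had a signal of 1105 with Nurr1+Foxa2, 1319 with Foxa2, 964 with Nurr1 and 1446 with Control. Against Control, Pts was 1.52-fold lower with Nurr1+Foxa2, 1.27-fold lower with Foxa2 and 1.63-fold lower with Nurr1. Control was the brightest of the 4 arrays for this gene.

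The second Pts probe (ILMN_1217378) read 439 with Nurr1+Foxa2, 506 with Foxa2, 397 with Nurr1 and 511 with Control. Its log2 differences from Control were -0.57 with Nurr1+Foxa2, -0.31 with Foxa2 and -0.57 with Nurr1, beside -0.61, -0.35 and -0.70 for the brighter probe. Both probes therefore had all 3 arrays with a factor below Control by more than the SD between probes. Of measured genes, 76.1% differed less from Control than the brighter probe with Nurr1+Foxa2, 70.5% with Foxa2 and 88.3% with Nurr1.

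Qdpr (ILMN_2699933) had a signal of 1592 with Nurr1+Foxa2, 1851 with Foxa2, 1129 with Nurr1 and 1227 with Control. It was 1.15-fold higher than Control with Nurr1+Foxa2, 1.34-fold higher with Foxa2 and 1.17-fold lower with Nurr1. The first of these (log2 0.20) lies within the SD between probes, and the other differences (log2 0.42 and -0.23) lie beyond it. Of measured genes, however, only 77.5% had a smaller absolute difference with Foxa2 and 53.8% with Nurr1. The Nurr1 value was thus near the middle of all genes. Foxa2 against Nurr1 gave the widest gap for Qdpr, 1.56-fold.

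Counted together, 3 of 5 members (Ddc, Gch1 and Dnajc12) were at least 2-fold higher with Nurr1+Foxa2 than with Control, where 7.06% of the 8019 genes detected on either array were. The same 3 of 5 were higher with Foxa2, where 3.52% of 7923 genes were, and 1 of 5, Ddc, with Nurr1, where 4.37% of 7915 genes were. None of 5 was 2-fold lower than Control, where 4.75% of genes were with Nurr1+Foxa2, 1.48% with Foxa2 and 2.79% with Nurr1. The members were chosen with these differences known, so nothing is read from the counts. Against Nurr1, 3 of 5 were higher with Nurr1+Foxa2 (all genes 4.41%) and none lower (1.73%). The same 3 were higher with Foxa2 than with Nurr1 (all genes 4.41%) and none lower (3.14%). Against Foxa2, Dnajc12 alone was at least 2-fold lower with Nurr1+Foxa2 (all genes 3.85%) and no member higher (4.81%).

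**Figure D2:**
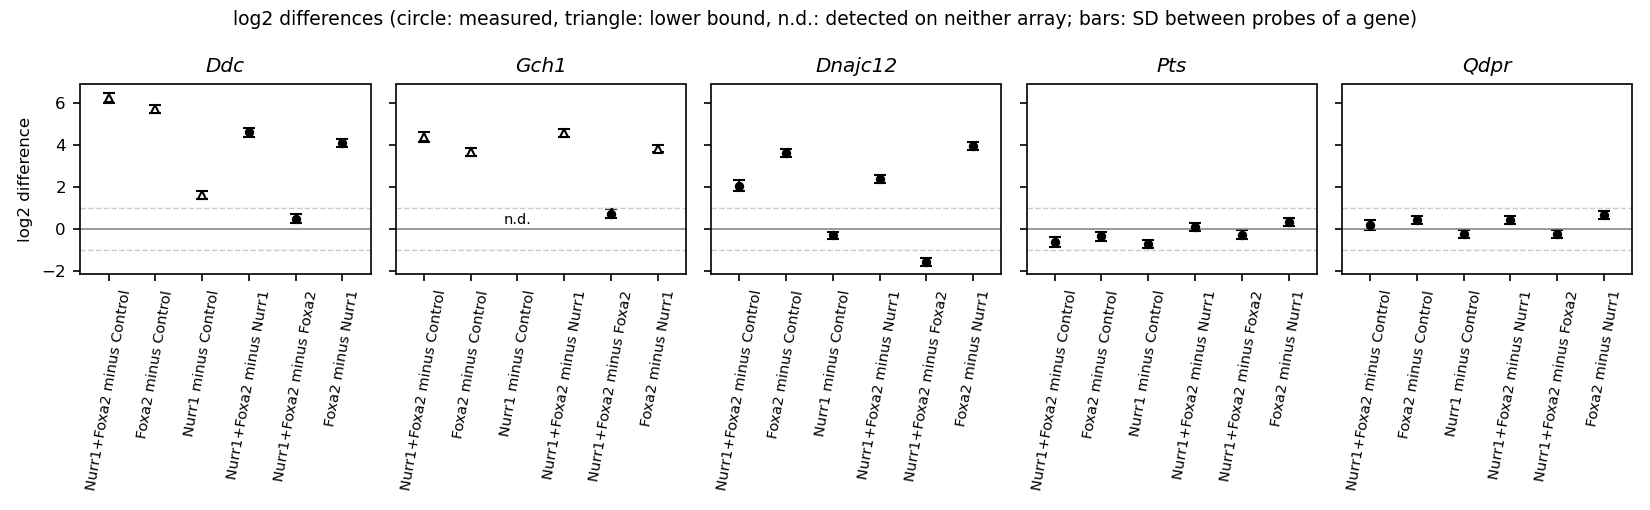
log2 differences of the 5 members in the 6 comparisons, as circles where measured and triangles where a bound, with bars for the SD between probes of a gene and dashed lines at 2-fold. Ddc reaches a bound of 6.21 (background-corrected scale) with Nurr1+Foxa2 against Control, and Dnajc12 is the only member below the lower dashed line, at -1.55 for Nurr1+Foxa2 against Foxa2.

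The joint array was also set against the sum of both single-factor arrays, on the linear background-corrected scale. Ddc stood 7006 above Control with Nurr1+Foxa2, 4934 with Foxa2 and 198 with Nurr1, so the joint excess was 1.37 times the summed single excesses of 5132. Gch1 stood 1907 above Control with Nurr1+Foxa2 and 1111 with Foxa2, while its excess with Nurr1 was taken as 0 since neither the Nurr1 nor the Control array detected it. Its joint excess was 1.72 times the sum by the brighter probe and 1.21 times by the dimmer one. By the Ddc probe and the brighter Gch1 probe the joint level was thus above the sum. The dimmer Gch1 probe does not settle the order, because its step between Nurr1+Foxa2 and Foxa2 (log2 0.11) lies within the SD between probes. Its ratio also rests on the floor, which put Control at 79.6 in place of its own 17.4. The ratios carry no error, and for both genes they rest on a step of less than 2-fold between Nurr1+Foxa2 and Foxa2.

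Dnajc12 lay on the other side of the sum. It stood 1154 above Control with Nurr1+Foxa2 and 4076 with Foxa2, and 69.2 below Control with Nurr1 (an excess of -69.2), so the joint excess was 0.288 times the summed 4007. On the log2 scale, where single effects are multiplied, Dnajc12 was also below the product of the single folds (9.92-fold), by a log2 term of -1.24. Ddc was below that product as well, by a term of -1.12 or lower, since its Control level is a bound. Whether Ddc counts as more or less than combined thus turns on the scale. For Gch1 the term is not bounded, because 2 arrays did not detect it.

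**Figure D3:**
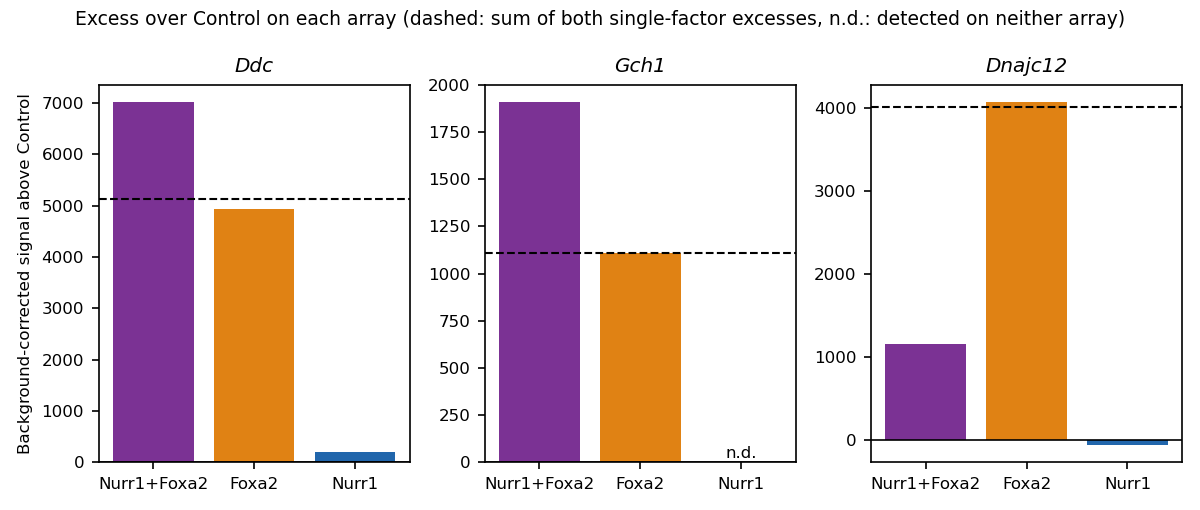
Background-corrected linear signal above Control for Ddc, Gch1 and Dnajc12 on the 3 arrays with a factor, as bars from 0, with the sum of both single-factor excesses as a dashed line. The Nurr1+Foxa2 bar is above the line for Ddc (7006 against 5132) and Gch1 (1907 against 1111) and below it for Dnajc12 (1154 against 4007).

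The other enzymes of tetrahydrobiopterin did not move with Gch1. Of 10 listed genes of its synthesis and recycling, 8 had a named probe and 6 were detected on at least 1 array, and Gch1 was the only one at least 2-fold different from Control on any array. With Gch1 included, the list's median log2 difference was 0.06 with Nurr1+Foxa2, -0.07 with Foxa2 and -0.11 with Nurr1, where Gch1 entered as 0. Without Gch1 the middle value was -0.08 with Nurr1+Foxa2 and -0.21 with Foxa2 (both Pcbd2), and -0.23 with Nurr1 (Qdpr). All measured genes had medians of -0.10, -0.05 and -0.03. Spr, for the last step of synthesis, had a signal of 778 with Nurr1+Foxa2, 771 with Foxa2, 1015 with Nurr1 and 931 with Control. It was 1.42-fold lower with Nurr1+Foxa2 and 1.47-fold lower with Foxa2 than with Control. Cbr1, a carbonyl reductase that can stand in for part of this synthesis, was 1.75-fold higher with Nurr1+Foxa2. Pcbd2, a dehydratase of the recycling path, read 1700 with Nurr1+Foxa2, 1569 with Foxa2, 1245 with Nurr1 and 1584 with Control. Gchfr, for the feedback regulator of GTP cyclohydrolase, and Pcbd1 were detected on no array.

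Of 9 listed hydroxylases and later monoamine enzymes, Th alone had a named probe. Th had a signal of 4470 with Nurr1+Foxa2, 237 with Foxa2, 188 with Nurr1 and 101 with Control, which did not detect it. Ddc and Gch1 thus reached most of their joint level with Foxa2 alone, and Th did not: its step between Nurr1+Foxa2 and Foxa2 was 30.4-fold, beside 1.41-fold for Ddc and 1.66-fold for Gch1. Among genes of monoamine storage, uptake and breakdown, 2 of 11 were named. The dopamine transporter gene Slc6a3 had a signal of 2023 with Nurr1+Foxa2, 113 with Foxa2, 171 with Nurr1 and 117 with Control. The aldehyde dehydrogenase gene Aldh2 stayed between 2958 and 3867.

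**Figure D4:**
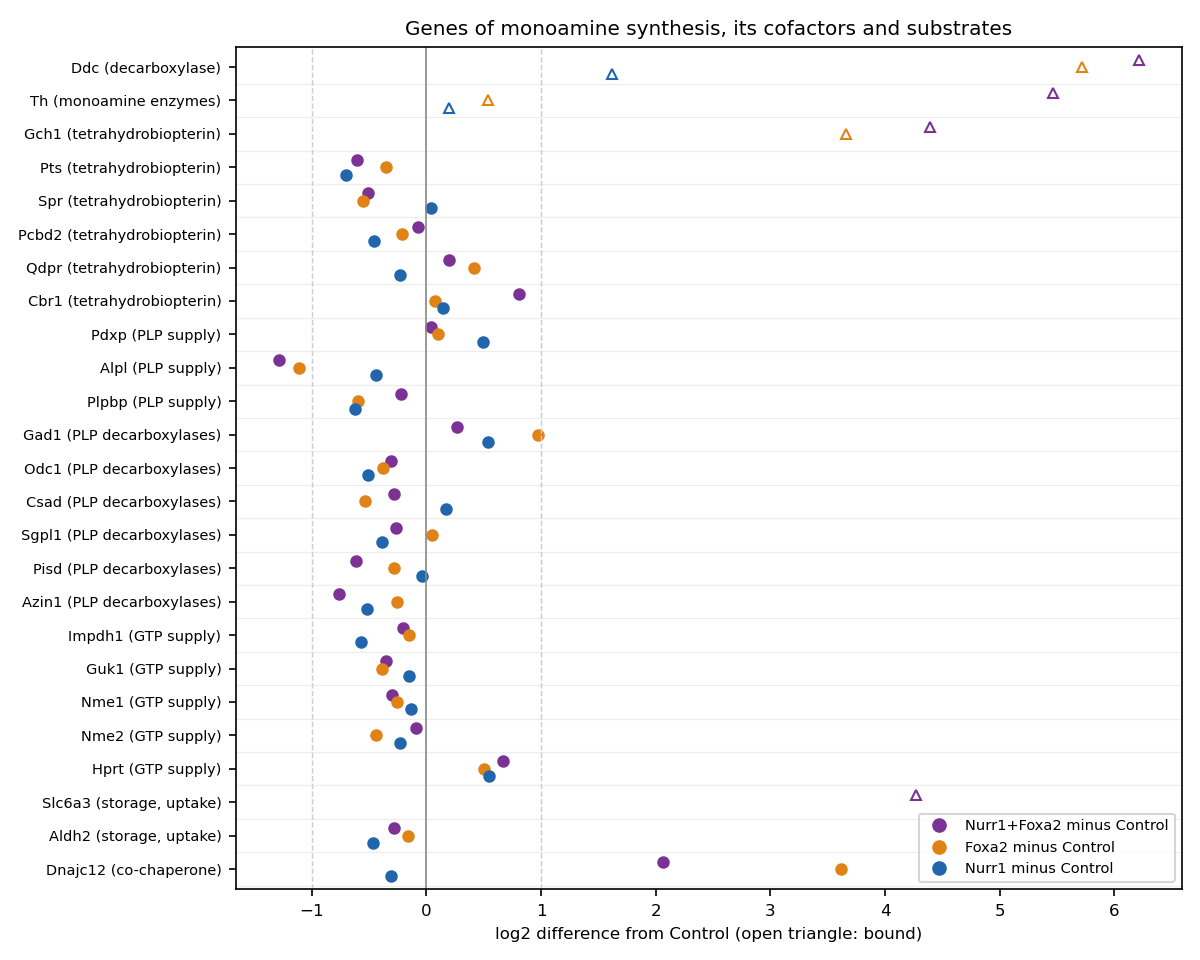
log2 difference from Control of each detected gene of monoamine synthesis, its cofactors and substrates, for Nurr1+Foxa2, Foxa2 and Nurr1, with open triangles for bounds and dashed lines at 2-fold. Ddc, Gch1 and Dnajc12 lie past 2-fold with both Foxa2-carrying arrays, Th and Slc6a3 with Nurr1+Foxa2, and Alpl lies below.

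Few genes around the members' substrates and cofactors passed 2-fold. Of 5 listed genes of pyridoxal phosphate supply, 3 were detected, with list medians of -0.22 with Nurr1+Foxa2, -0.60 with Foxa2 and -0.44 with Nurr1. Among them Alpl, the alkaline phosphatase that frees pyridoxal for uptake, had a signal of 240 with Nurr1+Foxa2, 253 with Foxa2, 323 with Nurr1 and 374 with Control. It was 2.44-fold lower with Nurr1+Foxa2 and 2.16-fold lower with Foxa2 than with Control, but short of 2-fold without background correction (log2 -0.91 and -0.80). None of 6 detected genes for other decarboxylases of that cofactor or their relatives passed 2-fold, nor did any of 5 detected genes of GTP supply. Gad1, the decarboxylase that makes GABA, came closest, with a log2 difference of 0.98 with Foxa2.

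Dnajc12 was compared with 20 detected J-domain and Hsp70 genes of its list, 19 of them detected on all 4 arrays. They had median log2 differences of 0.03 with Nurr1+Foxa2, 0.03 with Foxa2 and -0.01 with Nurr1, where Dnajc11, detected with Nurr1 alone, was entered as 0 for both other arrays. Dnajc6, for the clathrin-uncoating protein auxilin, read 7812 with Nurr1+Foxa2, 674 with Foxa2, 2354 with Nurr1 and 317 with Control. That is 27.8-fold, 2.02-fold and 8.59-fold above Control (the Foxa2 value falls short of 2-fold without background correction, at log2 0.83), so for Dnajc6 Nurr1 gave the larger single difference, and for Dnajc12 Foxa2 did. Dnajc15, a co-chaperone of mitochondrial import, was 3.06-fold higher with Nurr1+Foxa2. Hspa8, the partner of the Dnajc12 product, was within 1.03-fold of Control on each array with a factor. Its signals were very high, 62247 with Nurr1+Foxa2, 58394 with Foxa2, 60394 with Nurr1 and 60954 with Control. Whether a probe this bright could show a change was not tested, so the small folds do not show that Hspa8 was unchanged.

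Other listed genes were described with the members because they belong to amino acid transport or to midbrain dopamine neurons. The amino acid transporter gene Slc7a8 was 5.26-fold higher with Nurr1 than with Control. Nr4a2, the gene that the Nurr1 virus carries, was 15.2-fold higher with Nurr1+Foxa2 and 17.0-fold higher with Nurr1. Its Control signal was near the lowest detected one, and without background correction its Nurr1+Foxa2 fold was 8.51. The receptor gene Ret was at least 3.83-fold higher with Nurr1+Foxa2 and at least 9.54-fold higher with Nurr1. The neurotrophin gene Bdnf was 6.04-fold higher with Nurr1+Foxa2 and 3.12-fold higher with Foxa2. It too was near the lowest detected signal with Control, and without background correction these folds were 3.67 and 2.13. The midbrain regulator En2 had a signal of 160 with Nurr1+Foxa2, 207 with Foxa2, 224 with Nurr1 and 293 with Control. On the background-corrected scale En2 was at least 2.97-fold lower with Nurr1+Foxa2 and 2.19-fold lower with Foxa2, but without that correction these were 1.96-fold and 1.67-fold, short of 2-fold. Over all listed genes outside the 5 members, 48 were detected on at least 1 array. Of these, 7 were higher and 2 lower with Nurr1+Foxa2 (7.06% and 4.75% of all genes detected on either array compared). With Foxa2, 2 were higher and 2 lower (3.52% and 1.48%), and with Nurr1, 4 were higher and none lower (4.37% and 2.79%). Nr4a2 is among the higher genes with Nurr1+Foxa2 and with Nurr1. The lists were chosen with earlier results of these data known, so nothing is read from these counts either.

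The genes with the most similar profile were sought among 8229 others by the distance between their log2 differences from Control over the 3 arrays with a factor. These differences share the Control array, and undetected levels entered at the floor, so distances that involve them, and the order of the genes, rest on that floor. Nearest to Dnajc12 by this rule was Corin, a floor plate protease gene, at a distance of 0.41. With measured values in place of the floor, a setting chosen after the data were seen, Corin lay at 1.83 and was 29th. Neither the Nurr1 nor the Control array detected it. Corin had a signal of 485 with Nurr1+Foxa2, 1141 with Foxa2, 94.7 with Nurr1 and 105 with Control, so it too was lower with both factors than with Foxa2. Ero1b (1.05), the phosphatidate enzyme gene Cds1 (1.09), the collagen cross-linking enzyme gene Lox (1.14) and the annexin gene Anxa5 (1.32) came next. Ero1b, Cds1 and Anxa5 kept their distances without the floor, and Lox moved to 2.00. The gene nearest to Dnajc12 was then Fst, at 0.62.

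Nearest to Gch1, itself undetected on 2 arrays, were Aard (0.66), the TGF-beta receptor gene Tgfbr2 (0.76), Tmem255a (1.26), Palmd (1.27) and the carbonic anhydrase gene Car14 (1.29). Aard read 8314 with Nurr1+Foxa2, 3735 with Foxa2, 590 with Nurr1 and 397 with Control. Without the floor these lay between 1.05 and 1.73, and Slco4a1 was nearest at 0.33. For Ddc, whose 3 differences are all bounds, Diras2 was nearest at 2.70, followed by the protease gene Bace2 (2.80), the matricellular gene Ccn2 (3.15), Aard (3.18) and Gch1 (3.19). Without the floor the same genes lay between 4.48 and 5.63 from Ddc, and Ccn2 was nearest. Diras2 was 21.0-fold, 15.2-fold and 5.63-fold above Control with Nurr1+Foxa2, Foxa2 and Nurr1, the same order of arrays as for Ddc at smaller folds with Foxa2.

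**Figure D5:**
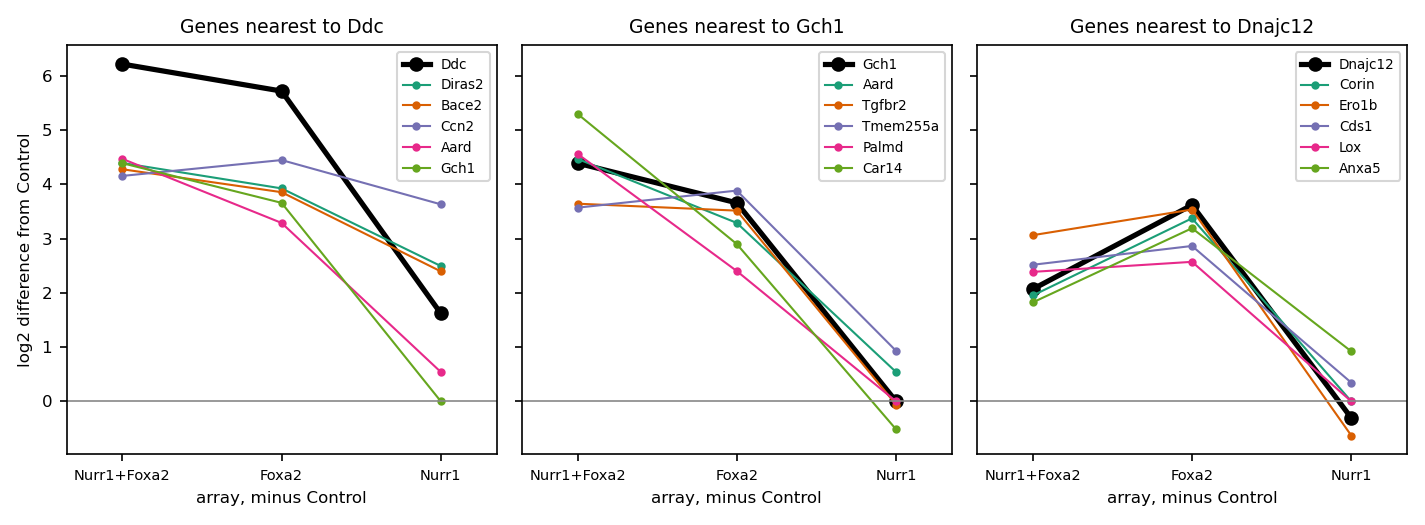
log2 differences from Control with Nurr1+Foxa2, Foxa2 and Nurr1 for Ddc, Gch1 and Dnajc12 (black) and the 5 genes nearest to each (colours), with bounds and undetected values drawn as used in the distance. Corin lies at 0.41 from Dnajc12 with the floor and 1.83 without it, and Diras2 lies at 2.70 from Ddc with the floor and 4.64 without it.

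Genes near the members on their chromosomes were looked at after the members' values were known. The order of genes is that of RefSeq on GRCm38.p6. On each side the nearest protein-coding gene with a named probe detected on any array was taken, so other genes can lie between. There was 1 protein-coding gene between for Cgrrf1, Ncam1 and Il18, and there were 2 for Med28 and Reep3. Fignl1 and Grb10 directly flank Ddc. Fignl1, an ATPase gene of DNA repair, read 384 with Nurr1+Foxa2, 480 with Foxa2, 346 with Nurr1 and 233 with Control, and was 2.06-fold higher with Foxa2 than with Control, or log2 0.78 without background correction. Grb10, an adaptor of growth factor receptors, was 1.66-fold higher with Nurr1+Foxa2, 1.79-fold with Foxa2 and 1.33-fold with Nurr1. Near Gch1, Cgrrf1 was 1.80-fold higher with Nurr1+Foxa2 and 1.92-fold with Foxa2. Wdhd1, directly beside Gch1, read 251 with Nurr1+Foxa2, 283 with Foxa2, 194 with Nurr1 and 162 with Control. For Dnajc12, Sirt1 on one side was within 1.12-fold of Control on each array, and Reep3 on the other was 1.96-fold lower with Nurr1+Foxa2. Differences of at least 2-fold were also found near the members that stayed within 2-fold. Il18, an interleukin gene near Pts, read 743 with Nurr1+Foxa2, 1223 with Foxa2, 770.5 with Nurr1 and 1897 with Control, 3.13-fold lower with Nurr1+Foxa2 and 2.75-fold lower with Nurr1 than with Control. Ldb2, beside Qdpr, was higher with Nurr1 than with Control by a bound of log2 1.59 on the background-corrected scale, or log2 1.04 without that correction. On their other sides, Ncam1 near Pts was 1.60-fold lower and Med28 near Qdpr 1.66-fold higher with Nurr1+Foxa2.

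Cell type markers also differed between the arrays. The 9 measured progenitor genes summed to a signal of 44157 with Nurr1+Foxa2, 81055 with Foxa2, 54922 with Nurr1 and 86335 with Control. Slc1a3 made up most of the Control sum. The other 8 summed to 23030 with Nurr1+Foxa2, 32197 with Foxa2, 28258 with Nurr1 and 25699 with Control, so without Slc1a3 the Foxa2 and Nurr1 sums were above Control. Of the 9 genes 6, 1 and 4 were at least 2-fold lower than Control on the first 3 arrays (all genes 4.75%, 1.48% and 2.79%), and Hes1 was 2.83-fold higher with Foxa2. Of 11 measured pan-neuronal genes, 4, 1 and 6 were higher (all genes 7.06%, 3.52% and 4.37%), while Rbfox3 was 3.35-fold lower with Nurr1+Foxa2 and 2.80-fold lower with Nurr1. Of 6 astrocyte genes 5, 2 and 4 were lower, and Gja1 was 2.15-fold higher with Nurr1. Of 7 genes of the oligodendrocyte lineage 5, 3 and 1 were lower. Of 8 named genes among the midbrain dopamine neuron regulators, 6 passed detection somewhere, and En1 and Msx1 did not. En2 passed with Foxa2, Nurr1 and Control, Lmx1b with Foxa2 and Nurr1, Ret with Nurr1+Foxa2 and Nurr1, and Drd2 with Nurr1+Foxa2. Nr4a2 and Bdnf passed with each of the 4 groups. Of 3 named cortical markers, all were detected on the 3 arrays with a factor and 2 on the Control array. They split in direction: Bcl11b was 2.70-fold higher with Nurr1 than with Control, and Neurod2 was 2.26-fold lower with Nurr1 and 2.13-fold lower with Foxa2. Of 5 named vascular and meningeal genes, 2 were detected on any array. Among them Foxc1 was at least 3.71-fold higher with Nurr1+Foxa2 than with Control, while the bound for Dcn was 1.10-fold. The part of cell composition in the members' differences was not tested.

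Ddc is also made outside neurons, in liver and gut among other places. Of 13 listed endoderm and liver genes 3 were named. Ctsh, for the protease cathepsin H, read 2420 with Nurr1+Foxa2, 149 with Foxa2, 113 with Nurr1 and 127 with Control. Ttr read 544 with Nurr1+Foxa2, 202 with Foxa2, 397 with Nurr1 and 274 with Control. It was 2.09-fold lower with Foxa2 than with Control, or log2 -0.68 without background correction, and 1.90-fold higher with Nurr1+Foxa2. Hnf4a stayed between 171 and 176, near the lowest detected signals. None of 10 listed markers of noradrenergic and serotonergic neurons, which also use Ddc, had a named probe, so these markers were not assessed. The microglial marker Aif1 was not detected on any array.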

How the data were processed

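Each of the 4 arrays belongs to the group its title names, and the labels give no separate cultures. Per the file headers, the scanner table holds for each of 25697 probes the mean bead signal (intensity, linear) and a detection p-value. Both were deposited by the authors, and background had not been subtracted. A value table, deposited by the authors, gives log2 values for 13246 probes, quantile normalized as its equal distributions show. The software that made either table is not given in the sources used here. Probes were named through GEO's platform annotation of the value table, and 12480 of the 12484 named probes were found by Entrez number in the RefSeq table. No symbol needed an update, and the remaining probes carry no name here.

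Signals were processed with neqc of limma 3.58.1 in R 4.3.3, with an offset of 16, over all 4 arrays together. Python 3.11.15, numpy 2.4.6, pandas 2.3.3 and matplotlib 3.10.9 were used after that. A gene was represented by its probe with the highest mean. The normalization was tested on simulated arrays, noisy copies of the Control array with known folds put into clearly detected probes. That test did not cover the detection floor, the bounds or the joint ratios. Of the listed genes outside the cell type markers, those at least 2-fold different from Control were named, and the 5 nearest profiles were named for Ddc, Gch1 and Dnajc12. Members, lists and motifs were chosen with earlier results of these data known. The alternatives were no background correction, scaling to equal medians, the authors' value table, detection at a p-value under 0.05, no detection floor, an offset of 50 and the mean of all probes. The number of arrays limits the precision.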

Additional observations from a re-analysis of the deposited data

Results flagged for a closer look

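Pts is flagged because Foxa2 went with opposite directions in the presence and in the absence of Nurr1. Its log2 difference was 0.10 for Nurr1+Foxa2 against Nurr1, and -0.35 for Foxa2 against Control. The first value is smaller than the SD between probes (0.20), and the second Pts probe gave -0.01 and -0.31. The difference was not tested.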

How the results depend on the processing

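All 14 member differences of at least 2-fold, over the 6 comparisons, kept their direction and stayed past 2-fold under all 7 alternatives, and no other member difference passed it. Their sizes moved most where an undetected level was involved. Values below are log2 differences. Without background correction Ddc was 5.31 (Nurr1+Foxa2), 4.82 (Foxa2) and 1.07 (Nurr1) against Control, 4.24 for Nurr1+Foxa2 against Nurr1 and 3.75 for Foxa2 against Nurr1. In the same 5 comparisons except Nurr1 against Control, Gch1 was 3.52, 2.83, 3.61 and 2.92. Dnajc12 was 3.34 (Foxa2 against Control), 2.08 (Nurr1+Foxa2 against Nurr1) and 3.58 (Foxa2 against Nurr1). The authors' value table gave the same values to within 0.02, with 4.23 for Ddc, 2.82 and 2.91 for Gch1 and 2.07 for Dnajc12. Detection at 0.05 gave Ddc 6.95, 6.45 and 2.36 against Control, and no floor gave 7.66, 7.17 and 3.07. Both gave Gch1 4.85 and 4.11 against Control, 4.83 for Nurr1+Foxa2 against Nurr1 and 4.10 for Foxa2 against Nurr1. An offset of 50 gave Ddc 5.78, 5.29 and 1.34, and Gch1 3.97, 3.26, 4.09 and 3.38. The mean of both Gch1 probes gave 2.60, 2.17, 2.76 and 2.34, and a joint ratio of 1.43 in place of 1.72.

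Joint ratios, whose alternatives were chosen after the data were seen, ranged from 1.32 to 1.37 for Ddc, 1.43 to 1.73 for Gch1 and 0.281 to 0.288 for Dnajc12. Leaving out background correction and an offset of 50 left each at its main value to 3 significant digits. Listed genes higher with Foxa2 numbered 1 in place of 2 without background correction, with the authors' values and with offset 50, and 3 under the other 4 settings. With Nurr1 they numbered 6 in place of 4 without a floor. Those lower with Foxa2 numbered 0 without background correction, with the authors' table and with offset 50, and 1 with median scaling, in place of 2. With Nurr1+Foxa2 none was lower without background correction or in the authors' table, and 3 were with median scaling. Over all genes, the number lower was 55 (no background correction) and 57 (authors' values) for Foxa2 against Control, in place of 117, and 146 in both for Nurr1 against Control, in place of 221. It was 77 and 73 for Nurr1+Foxa2 against Nurr1, in place of 138, 201 and 199 against Foxa2, in place of 310, and 163 in both for Foxa2 against Nurr1, in place of 252. Why these counts fell was not tested. Dim probes limit Gch1, whose Nurr1 and Control signals stood below the lowest detected ones. No paired analysis was possible because each group has 1 array.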
